A study of Mus musculus with 13 samples.

Results

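The whole abdominal epidermis of mice 40 days after birth of a litter (dpp40) was described from 1 single-cell library, in which 8552 of 8716 deposited barcodes had at least 200 detected genes and at most 10% of their UMIs (unique molecular identifiers, each standing for 1 captured transcript) from mitochondrially encoded genes. These are 8552 of the 36927 cells kept over the 4 single-cell libraries of the series, the others being non-pregnant (NP, 6491 cells), gestation day 16 (dpc16, 12853 cells) and 6 days post partum (dpp6, 9031 cells). The study followed the expansion of abdominal skin in pregnancy, and the comparison of dpp40 with NP asks how far the epidermis long after birth resembles that of mice that had not been pregnant. All 4 libraries came from C57BL/6 mice of the genotype Tbx3creERT2; R26H2B EGFP, in which a tamoxifen-dependent recombinase is expressed from Tbx3 and switches on a nuclear green reporter, and all mice received tamoxifen. The dpc16, dpp6 and dpp40 mice received it during pregnancy and the NP mice for 3 days, so the time since tamoxifen cannot be told apart from the state. The age of the mice and the number of animals in each library are not stated in the labels.

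The epidermis renews itself from a basal layer of keratinocytes marked by Krt5 and Krt14, whose progeny move up through a spinous layer marked by Krt1 and Krt10 and end as cornified, dead cells. It also houses the upper parts of hair follicles and sebaceous glands, resident Langerhans cells that present antigen, and T cells. In pregnancy the abdominal epidermis has to cover a growing area, and after birth the skin shrinks back.

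Each state has 1 library, so differences below are between these libraries, with no replicate check and no test. Intervals are exact Poisson or binomial 95% intervals and cover counting error only. Levels are CPM, the UMIs of a gene as a share of 1000000 UMIs summed over all kept cells of a library, and in such a sum fewer cells of a type and less RNA per cell cannot be told apart. The kept cells held 62587510 UMIs at dpp40 and 39767733 in NP, with medians of 5638 and 4709 UMIs per cell and 2.81% and 2.99% mitochondrial UMIs. Near the mitochondrial limit, 63 dpp40 barcodes lay between 9% and 10% and 49 between 10% and 11%. No kept cell had fewer than 2000 UMIs, and 70 barcodes were shared between the kept cells of both libraries. The NP library stood apart from the other 3 at a stretch of Skint genes, and the dpp40 library in holding almost no beta-globin and no globin-rich cells, both described below. The labelled tissue matched its markers by summed level. The 9 basal markers had 14157 CPM in NP and 15043 at dpp40, and the 8 spinous markers 19935 and 19378 CPM. The summed level of 7 fibroblast markers was 61.2 CPM in NP and 54.1 CPM at dpp40, nearly all of it from Sparc. None of the markers of hair matrix, macrophages, mast cells, melanocytes, Merkel cells, endothelium, smooth muscle, adipocytes or skeletal muscle reached a mean of 10 CPM.

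Over the whole transcriptome the 2 libraries were close. Of 7165 genes with a mean of at least 10 CPM, 21 were at least 2-fold higher at dpp40 (0.293%) and 19 at least 2-fold lower (0.265%), 0.558% either way. At 1.5-fold, 85 genes were higher (1.19%) and 61 lower (0.851%). The median log2 ratio of dpp40 to NP was -0.03, and its 5th and 95th percentiles were -0.33 and 0.30. Among the genes with the highest ratios were genes that cells induce within minutes to hours of a stimulus, and among those with the lowest were globins, Skint genes and several pseudogene-like loci.

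**Figure D1:**
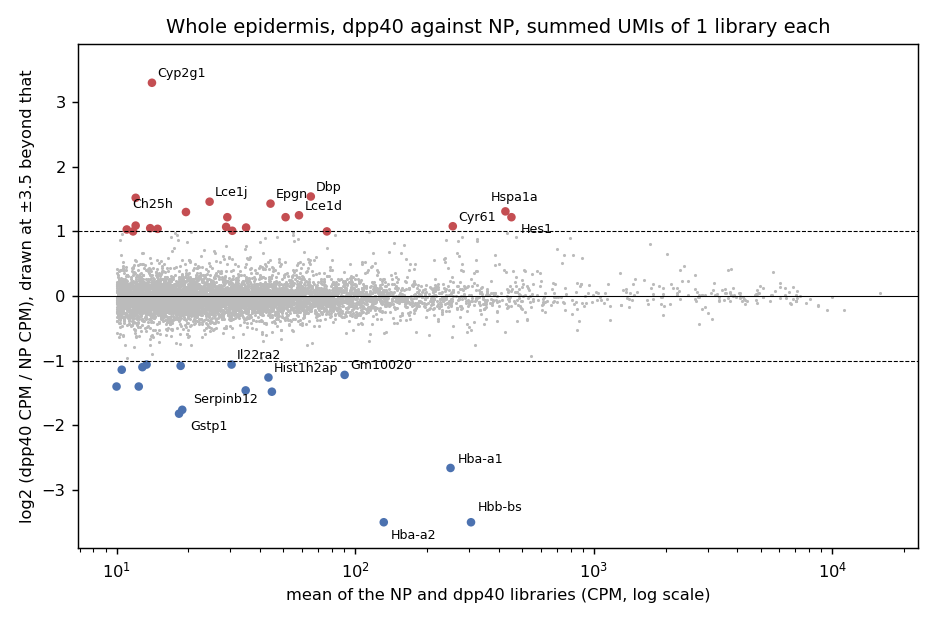
Each point is a gene with a mean of at least 10 CPM and a UMI in both libraries, with the mean of NP and dpp40 in CPM on a log axis and the log2 ratio of dpp40 to NP on the vertical axis. Genes past 2-fold are coloured, red for higher at dpp40 and blue for lower, and the dashed lines mark 2-fold; most genes lie close to 0, and the globins Hbb-bs and Hba-a2 lie beyond the drawn range.

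Immediate early genes, most of them transcription factors and phosphatases induced without new protein synthesis, were higher at dpp40 than in NP almost throughout. Of 20 listed, 19 were counted (a mean of at least 10 CPM), 18 of them lay above 0 on the log2 ratio, 9 were at least 1.5-fold higher and none reached 2-fold, with a median log2 ratio of 0.57. Over all genes counted, 43.1% lay above 0 and the median was -0.03. Fos, a subunit of the AP-1 transcription factor, had 1245 CPM in NP, 1813 at dpc16, 1501 at dpp6 and 2181 at dpp40, a log2 ratio of dpp40 to NP of 0.81. Atf3, a stress-induced transcription factor, had 558, 799, 902 and 1040 CPM in the same order, and Dusp1, a phosphatase that ends MAP kinase signals, had 527, 900, 767 and 875 CPM. NP was the lowest library for all 3 of these genes, and dpp40 the highest for Fos and Atf3. Fosl1, another AP-1 subunit, had 40.4 CPM in NP, 78.7 at dpc16, 89.8 at dpp6 and 75.1 at dpp40. Over the list, NP was the lowest of the 4 libraries for 16 of 19 genes, a position it held for 19.6% of all genes counted. Jund was the 1 counted member on the other side, with 342 CPM in NP and 321 at dpp40. With 1 library per state, the handling of a library cannot be told apart from its state. The part of the dissociation with trypsin in these levels was not tested.

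Cells with a Fos UMI were more frequent at dpp40 once every cell was thinned to 2000 UMIs, 74.1% (73.2 to 75%) against 58.1% (56.9 to 59.3%) in NP, and 90.7% against 75.6% without thinning. Fos was higher across the range of keratinocyte differentiation, which was cut by the share k of Krt1 and Krt10 UMIs among the UMIs of Krt1, Krt10, Krt5 and Krt14. The log2 ratio of Fos was 0.83 in the low keratin range (k of at most 0.25, basal-type keratins), 0.98 in the middle range and 0.59 in the high range (k of at least 0.75, spinous-type keratins). In the gate of cells with at least 2 UMIs of Cd207, the lectin that defines Langerhans cells, the ratio was -0.20, and in the gate with at least 2 UMIs of the Cd3 genes of T cells it was 0.46. These keratin ranges are cuts on a continuous measure: 4.98% of NP and 4.89% of dpp40 cells lay with k between 0.2 and 0.3.

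Heat shock genes, which encode chaperones that fold damaged proteins, had a similar profile. All 12 listed were counted, 10 lay above 0, 5 were at least 1.5-fold higher and 1 reached 2-fold, with a median log2 ratio of 0.50. Hspa1a (ENSMUSG00000091971; mm10 chromosome 17, 34969190 to 34972156), the stress-inducible Hsp70, had 245 CPM in NP, 297 at dpc16, 437 at dpp6 and 608 at dpp40, a log2 ratio of 1.31 with a counting interval of 0.03 on either side. Its near-identical neighbour Hspa1b, with which reads may be split, had 106 and 186 CPM. Hspa1a was found in 46.6% of thinned cells at dpp40 and 27.3% in NP, and its ratio was 1.30, 1.49 and 1.26 in the low, middle and high keratin ranges. Dnajb1, a co-chaperone of Hsp70, had 231 CPM in NP and 415 at dpp40, and Hsph1, which exchanges the nucleotide on Hsp70, had 11.7 and 22.1 CPM. The constitutive Hsp90ab1 had 1479 and 1418 CPM and the mitochondrial chaperonin Hspe1 381 and 355 CPM, the only 2 members below 0. The part of handling and dissociation in the heat shock levels was not tested either.

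The heat shock element, the binding site of the heat shock factor HSF1, was searched in RefSeq promoter windows (250 bases before to 50 after a transcription start, GRCm38.p6) on both strands as GAA, TTC and GAA with any 2 bases between neighbouring units. It was present in 0.603% of 32851 windows of all genes, and in a window of 3 of the 9 heat shock genes that had one (Hsph1, Hspe1 and Hspd1). Genes can have several windows, so the shares per gene and per window are not on one scale. The Hsph1 window at chr5:149636266-149636565 on the minus strand is shown because Hsph1 had the second highest ratio of the list, with the match, 15 bases after the start, in capitals.
Hsph1: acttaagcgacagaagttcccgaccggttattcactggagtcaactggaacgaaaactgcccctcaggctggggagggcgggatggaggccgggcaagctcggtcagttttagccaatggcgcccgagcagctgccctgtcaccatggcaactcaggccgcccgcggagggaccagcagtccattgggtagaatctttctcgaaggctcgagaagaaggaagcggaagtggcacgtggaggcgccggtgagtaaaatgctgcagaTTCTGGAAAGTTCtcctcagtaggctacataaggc
The other matching genes, Hspe1 and Hspd1, had log2 ratios of -0.10 and 0.17.

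Genes of the circadian clock made up another group with high ratios. Of 18 listed, 13 were counted, 11 lay above 0 and 2 were at least 2-fold higher, with a median log2 ratio of 0.36. Dbp (ENSMUSG00000059824; mm10 chromosome 7, 45705088 to 45710203), a transcription factor whose level follows the clock, had 33.4 CPM in NP, 54.2 at dpc16, 128 at dpp6 and 97.0 at dpp40, a log2 ratio of 1.54 with an interval of 0.09 on either side, the highest among genes with a mean of at least 20 CPM. It was found in 18.4% of thinned cells at dpp40 (17.6 to 19.3%) and 6.30% in NP (5.72 to 6.92%). Bhlhe40, a repressor in the clock, had 22.6, 22.8, 51.5 and 47.2 CPM, so NP and dpc16 were low and dpp6 and dpp40 high. Tef, a relative of Dbp, had 28.9 CPM in NP and 40.9 at dpp40, and Per1 and Per3, inhibitors of the clock's activators, had 35.2 and 20.3 CPM in NP against 47.3 and 27.1 CPM at dpp40. The activators themselves were lower at dpp40: Arntl had 19.5 CPM in NP and 14.6 at dpp40, and Clock 29.6 and 22.7. The labels do not state the time of day at which skin was taken, and its part in these values was not tested.

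CLOCK and ARNTL bind the E-box CACGTG, which reads the same on both strands. It was present in 7.15% of all promoter windows and in a window of 5 of the 15 clock genes that had one (Per1, Cry1, Tef, Ciart and Bhlhe41). Both matching windows of Tef on the plus strand, at chr15:81802423-81802722 and chr15:81811164-81811463, are shown with the E-box in capitals, since Tef was the counted gene with the highest ratio among the 5.
Tef upstream start: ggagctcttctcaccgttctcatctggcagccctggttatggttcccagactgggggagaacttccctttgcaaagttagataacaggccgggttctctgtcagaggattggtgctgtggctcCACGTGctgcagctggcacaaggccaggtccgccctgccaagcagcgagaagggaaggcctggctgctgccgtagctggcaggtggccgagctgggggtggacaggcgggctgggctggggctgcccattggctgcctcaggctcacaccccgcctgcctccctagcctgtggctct
Tef downstream start: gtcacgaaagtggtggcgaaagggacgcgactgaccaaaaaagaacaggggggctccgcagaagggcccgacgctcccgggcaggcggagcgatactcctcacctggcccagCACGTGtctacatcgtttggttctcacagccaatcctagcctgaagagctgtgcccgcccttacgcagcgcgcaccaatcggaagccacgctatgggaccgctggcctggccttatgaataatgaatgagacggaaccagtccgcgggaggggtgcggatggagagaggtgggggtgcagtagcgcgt
The E-box begins at position -127 from the start in the former and -138 in the latter. Neither Dbp nor Bhlhe40, with the highest ratios among the counted members, was among the matching genes. Only 15 of the 18 listed genes had a window, and whether Dbp and Bhlhe40 did was not recorded, so nothing is read from this. Other lists were searched as well. A CArG box was found in a window of 2 of 15 immediate early genes and in 1.63% of all windows. A sterol response element was found for 0 of 13 cholesterol synthesis genes and in 0.234% of all windows.

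Outside these lists, the 15 highest ratios included signalling and regulatory genes and a stress keratin. Hes1 (ENSMUSG00000022528; mm10 chromosome 16, 30064384 to 30067796), a repressor induced by Notch, had 271 CPM in NP, 370 at dpc16, 404 at dpp6 and 633 at dpp40, a log2 ratio of 1.22 with an interval of 0.03 on either side, and was found in 42.8% of thinned cells at dpp40 against 25.6% in NP. Its ratio was 1.39, 1.02 and 0.87 from the low to the high keratin range, 1.27 in the T cell gate and 1.14 in the Langerhans gate. It was the only 2-fold member among 9 counted Notch genes, whose median was -0.04. Cyr61, a matrix protein and target of YAP, had 165, 222, 321 and 348 CPM in the order NP, dpc16, dpp6 and dpp40, while 9 counted YAP targets had a median of 0.18. Socs3, which dampens cytokine signals through STAT3, had 76.5, 50.9, 95.7 and 152 CPM. Epgn, a ligand of the EGF receptor, had 23.9, 52.8, 51.1 and 64.5 CPM, and Krt16, a keratin of stressed epidermis, had 30.8, 54.3, 56.7 and 71.5 CPM; counts of Krt16 may be shared with closely related keratins. The 5 counted stress keratins and alarmins had a median of -0.01, with Krt6a at -0.50, Stfa3 at -0.76 and Krt17 at -0.01. Cells with a UMI were 7.19% at dpp40 and 2.73% in NP for Epgn after thinning, and 6.14% and 2.99% for Krt16. Over the 15 highest genes NP was the lowest library for 10 and dpp40 the highest for 11, but the genes were chosen for that contrast.

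**Figure D2:**
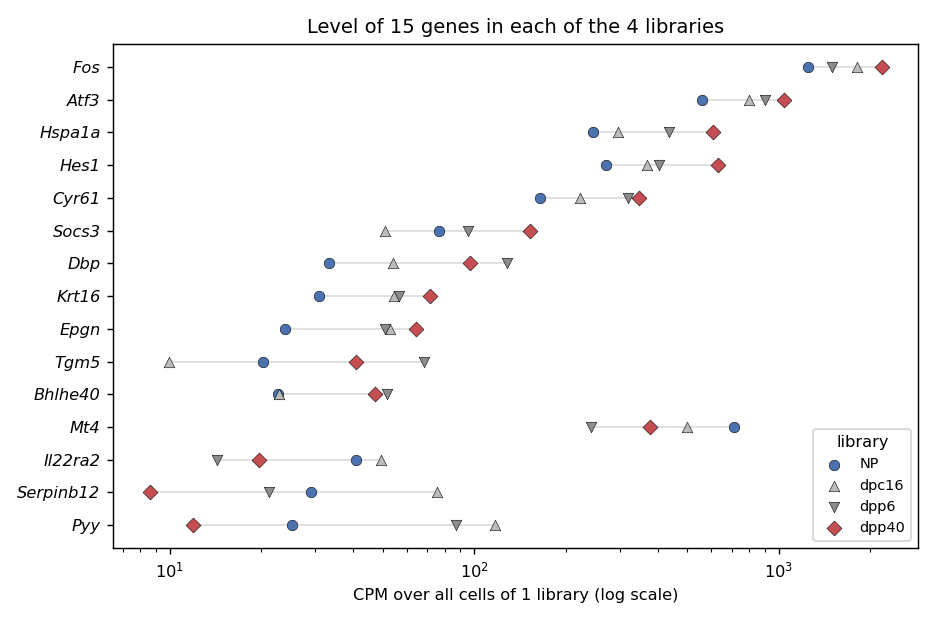
Level in CPM (log axis) of 15 genes named in the text, with 1 symbol for each library. NP is the lowest library for Fos, Atf3, Hspa1a, Hes1, Cyr61, Dbp, Krt16 and Epgn, and the bottom 4 genes are lower at dpp40 than in NP.

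The remaining genes of that top group were stress and barrier genes. Gadd45g and Gadd45b, growth arrest genes, had 18.6 and 50.7 CPM in NP and 39 and 102 CPM at dpp40, and Gadd45b had a ratio of only 0.05 in the high keratin range against 1.37 in the low one. Phlda1 had 36.7 CPM in NP and 73.0 at dpp40, with 24.2 at dpc16 and 88.6 at dpp6. Tgm5, a transglutaminase that links proteins of the cornified envelope, had 20.2 CPM in NP, 9.97 at dpc16, 68.3 at dpp6 and 40.9 at dpp40. Lce1j, Lce1d and Lce1h, late cornified envelope genes, had log2 ratios of 1.46, 1.25 and 1.22.

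The Lce1 family, chosen after its values were seen, was higher at dpp40 in every one of its 12 counted genes, 3 of them at least 2-fold, with a summed level of 3206 CPM in NP, 2175 at dpc16, 3481 at dpp6 and 4879 at dpp40. A large part of these transcripts lay in few cells: over the 12 genes the 10 richest cells held 46.2% of UMIs in NP and 31.3% at dpp40. The share was smallest for Lce1m, the most abundant, with 32.3% and 20.8%. The 10 cells with the most Lce1d UMIs held 87.0% of all Lce1d UMIs in NP and 77.2% at dpp40, against 1.84% and 1.04% for Fos. Without those cells Lce1d had 4.48 CPM in NP and 18.7 at dpp40. The genes of the family are close copies of each other, so reads may be split among them. Other late differentiation genes did not share the ratio: 9 counted granular and cornified markers had a median of 0.00, with Cdsn at 0.41 and Hrnr at -0.58.

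**Figure D3:**
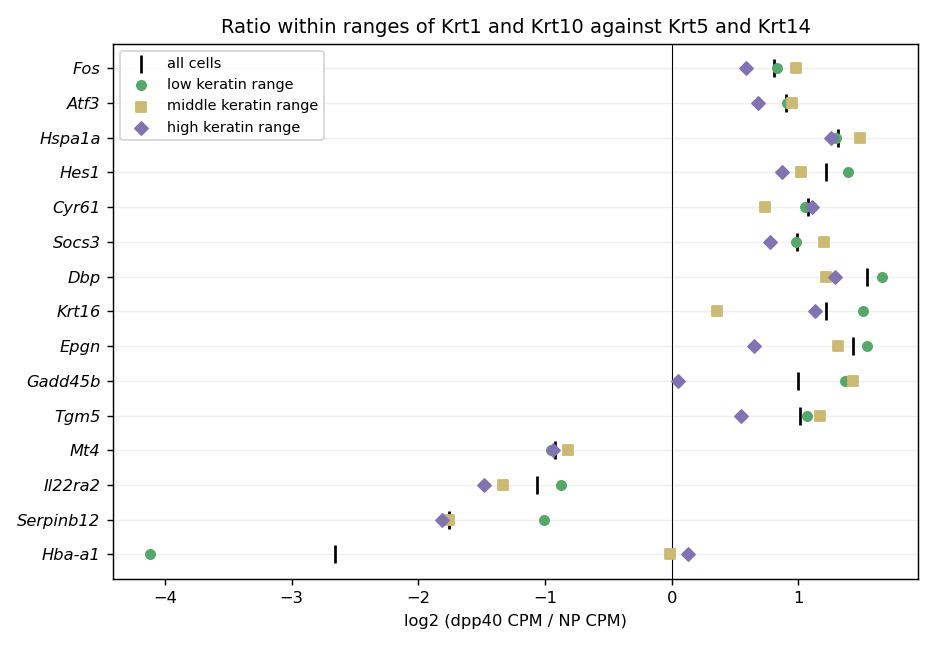
Log2 ratio of dpp40 to NP for 15 named genes over all cells (black bar) and within the low, middle and high keratin ranges. The ratios of Hspa1a, Dbp and Mt4 keep their sign and lie near the value over all cells in each range, while that of Hba-a1 is near 0 in the middle and high ranges.

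Genes of glycolysis and of cholesterol synthesis had list medians above that of all genes. All 17 counted genes of glycolysis and the hypoxia response (of 21 listed) had a log2 ratio above 0, with a median of 0.49; 4 were at least 1.5-fold and none 2-fold higher. Egln3, an oxygen-sensing hydroxylase, had 13.7 CPM in NP, 12.7 at dpc16, 44.0 at dpp6 and 27.2 at dpp40, so dpp6 was the highest library. Hk2, the first enzyme of glycolysis, had 11.8 and 23.4 CPM in NP and dpp40, and Pfkl, a subunit of phosphofructokinase, 12.2 and 23.6 CPM. Of the 4 members below the level filter, Pgk1 went the other way, with 9.10 CPM in NP and 4.59 at dpp40. All 18 counted genes of cholesterol synthesis (of 19 listed) lay above 0, with a median of 0.33, and dpp40 was the highest of the 4 libraries for 17 of them, a position it held for 15.7% of all genes counted. Insig1, a regulator of the pathway, had 7.27 CPM in NP, 8.76 at dpc16, 10.8 at dpp6 and 14.8 at dpp40. The pathway enzymes Idi1 and Msmo1 had 26.1 and 47.1 CPM in NP and 43.3 and 75.5 CPM at dpp40. Ch25h, which makes 25-hydroxycholesterol, had 11.3 CPM in NP and 27.8 at dpp40. The respiratory chain lay near the background, with medians of -0.09 for 12 mitochondrially encoded and -0.05 for 27 nuclear genes.

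**Figure D4:**
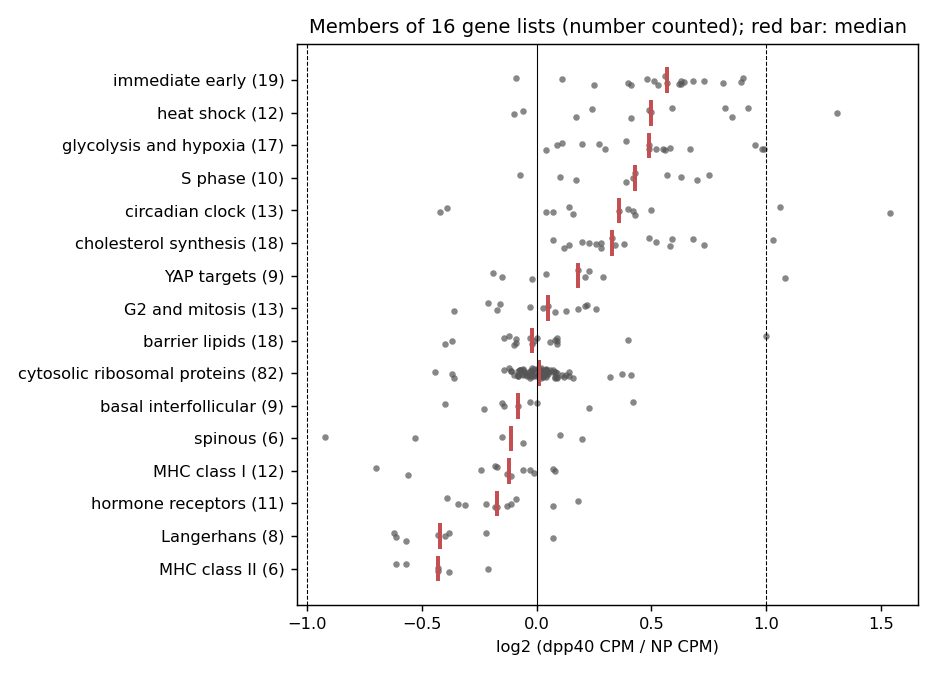
Each dot is a counted member of 1 of 16 gene lists, placed by its log2 ratio of dpp40 to NP, with the list median as a red bar and 2-fold as dashed lines. Medians run from 0.57 for immediate early genes to -0.43 for MHC class II, and most dots lie inside 2-fold.

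Genes of DNA replication and of mitosis differed in their medians. Of 20 S phase genes, 10 were counted and 9 of these lay above 0, with a median of 0.43, and 3 were at least 1.5-fold higher. Mcm6, a subunit of the replicative helicase, had 13 CPM in NP, 18.0 at dpc16, 20.1 at dpp6 and 21.9 at dpp40, and Pcna, the sliding clamp, had 19.6, 28.4, 36.1 and 31.9 CPM. The 13 counted genes of G2 and mitosis had a median of 0.05, with Cdc20 at 0.26 and Cenpf at -0.36. Top2a, a marker of both phases, was found in 4.70% of thinned cells at dpp40 (4.26 to 5.17%) and 4.75% in NP (4.24 to 5.29%).

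The make-up of the epidermis by keratins was similar in the middle and high ranges. The middle range held 13% of cells at dpp40 and 13.5% in NP, and the high range 17.0% in both. The low keratin range held 65.4% at dpp40 (64.4 to 66.4%) and 61.5% in NP (60.3 to 62.7%), intervals that do not overlap. Cells with fewer than 10 UMIs over the 4 keratins made up 2.61% at dpp40 (2.28 to 2.97%) and 5.76% in NP (5.21 to 6.36%). The medians of 5638 and 4709 UMIs per cell differ as well, and the part of depth in these shares was not tested. The median cell of this class had 6312 CPM of Krt79, an upper follicle keratin, at dpp40 and 1039 CPM in NP. Marker lists of basal, spinous, granular, upper follicle, bulge and sebaceous cells had medians between -0.11 and 0.00. Krt14 had 3212 CPM in NP, 5131 at dpc16, 4072 at dpp6 and 4284 at dpp40, and Krt10 5638, 5573, 4547 and 6460 CPM. Krt1, the partner of Krt10, had 1002, 1696, 733 and 694 CPM, so its ratio of dpp40 to NP, -0.53, had the opposite sign to that of Krt10, 0.20.

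MHC class II genes, which present antigen, had lower levels at dpp40 by less than 2-fold. All 6 counted genes lay below 0, with a median of -0.43 and 1 at least 1.5-fold lower, and dpp40 was the lowest of the 4 libraries for 5 of them, a position it held for 26.5% of all genes counted. Cd74, the chaperone of class II molecules, had 247 CPM in NP, 179 at dpc16, 453 at dpp6 and 161 at dpp40, and H2-Ab1 had 159, 133, 271 and 106 CPM. Langerhans cells are the main source of these transcripts in epidermis, and 7 of 8 counted Langerhans markers lay below 0, but 4 of the 8 are class II genes or Cd74 already counted. The summed level of the Langerhans list was 890 CPM in NP and 693 at dpp40. The Langerhans gate held 0.982% of cells at dpp40 (0.784 to 1.21%) and 1.17% in NP (0.924 to 1.46%), intervals that overlap. Within that gate Cd74 had a log2 ratio of -0.64 and H2-Ab1 also -0.64. The median cell of the gate had 989 CPM of Krt14 at dpp40 and 537 CPM in NP, at medians of 6490 and 4324 UMIs; the part of keratinocyte transcripts in the gate's ratios was not tested. Cd207 itself had 15.4 CPM in NP and 13.3 at dpp40. A Cd207 UMI was seen in 0.465% of thinned cells of the low keratin range at dpp40 and 0.376% in NP. Cells with at least 2 Cd207 UMIs are left out of that range by the gates, so these shares are no full measure of background.

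The T cell gate held 0.982% of cells at dpp40 and 1.05% in NP (0.814 to 1.33%). The gate, like that of Langerhans cells, was set on raw UMIs, at library medians of 5638 and 4709 UMIs per cell. The part of depth in these shares was not tested. The 5 counted T cell markers had a median of -0.15, which is the ratio of Trbc2. Cd3g, a chain of the T cell receptor complex, had 22.2 CPM in NP and 14.7 at dpp40, and a log2 ratio of -0.55 within the gate. Of the members below the level filter, Trdc had 10.3 and 6.66 CPM, Nkg7 11.7 and 7.73, and Cd3e 5.43 and 5.64. Most UMIs of Trbc1 and Trbc2 lay outside the gate, 56 of 558 and 103 of 4145 being inside it in NP. MHC class I genes had a median of -0.12 over 12, with H2-T23 the lowest at 141 CPM in NP and 87.3 at dpp40. Of 9 counted interferon response genes 6 lay below 0, with a median of -0.09. This is near the background, since 43.1% of all genes counted lay above 0 and their median was -0.03. Usp18, a brake on interferon signalling, was 2-fold higher with 7.69 and 16.4 CPM, and Bst2, which tethers viruses to the cell, had 12.4 and 8.26 CPM.

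The genes followed for pregnancy in this series were mostly at or below their NP level at dpp40. They were taken from earlier results of these libraries, so their direction at dpc16 is not independent evidence. Of 15 listed 9 were counted, 8 lay below 0 and 1, Pyy, was at least 2-fold lower, with a median of -0.32. Over all genes counted, 43.1% lay above 0 and the median was -0.03. For 7 of the 9 genes dpp40 was the lowest library, a position it held for 26.5% of all genes counted. Pyy, a peptide hormone gene, had 25.2 CPM in NP, 117 at dpc16, 87.0 at dpp6 and 11.9 at dpp40, and without the 10 cells richest in Pyy it had 14.4 CPM in NP and 8.69 at dpp40. Tgm3, a transglutaminase of the cornified envelope and hair, had 14.6, 94.4, 17.9 and 7.49 CPM, and Fkbp5, a glucocorticoid target, 22.2, 58.2, 18.3 and 13.4 CPM. Prlr, the prolactin receptor, had 53.3, 81.3, 68.5 and 43.0 CPM. In each of these 4 genes dpc16 was the highest library and dpp40 the lowest, but all were named for being among the largest ratios of dpp40 to NP in a list. Serpinb12, a serine protease inhibitor, had the same order, with 29.1 CPM in NP, 75.6 at dpc16, 21.2 at dpp6 and 8.60 at dpp40.

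Tbx3, the transcription factor whose gene carries the recombinase, had 173 UMIs in NP and 162 at dpp40, that is 4.35 CPM in NP, 12.6 at dpc16, 3.86 at dpp6 and 2.59 at dpp40. It was seen in 0.468% of thinned cells at dpp40 (0.334 to 0.636%) and 1.02% in NP (0.787 to 1.29%). EGFP, the reporter, had 3.29 CPM in NP and 2.46 at dpp40, from 131 and 154 UMIs, and was seen in 1.54% of cells at dpp40 and 1.71% in NP without thinning. After thinning the shares were 0.398% (0.275 to 0.555%) and 0.308% (0.188 to 0.475%), intervals that overlap. The ratio of CPM was -0.42 with a counting interval of 0.34 on either side, and 0.37 when every cell was thinned, so the measures disagree in sign and no direction is read from them.

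Among the genes lower at dpp40, Il22ra2, a soluble decoy receptor for interleukin 22, had 41.0, 49.5, 14.3 and 19.7 CPM, so both post partum libraries were low. Mt4, a metallothionein of stratified epithelia, had 714, 501, 241 and 377 CPM, and its ratio lay between -0.95 and -0.82 in the 3 keratin ranges. Mt1 and Mt2, the widely expressed metallothioneins, had ratios of 0.18 and 0.25. Gstp1, a glutathione transferase with a close copy, had 28.5, 25.3, 8.70 and 8.05 CPM, and Arf5, a GTPase of membrane traffic, had 398, 459, 532 and 237 CPM. Krtap3-2, a hair shaft protein, had 78.8 CPM in NP and 46.7 at dpp40, and the 10 richest cells held 58.0% and 45.9% of its UMIs.

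Several other genes in this group are loci whose reads cannot be placed with certainty. Gm10020, Gm7808, Rpl13a-ps1 and Gm6576 are annotated as processed pseudogenes, and Gm8797, Gm10116 and the long non-coding Gm10076 are predicted genes, all of whose reads may belong to similar copies elsewhere. Hist1h2ap, a histone gene with many close copies, had 61.2 CPM in NP, 27.9 at dpc16, 4.38 at dpp6 and 25.5 at dpp40. Gm10076 had 365, 221, 66.0 and 184 CPM and nearly the same log2 ratio in every gate, from -0.98 in the low keratin range to -1.02 in the Langerhans gate. Single ribosomal protein genes were equally even across gates: Rps28 had ratios between 0.36 and 0.42 and Rpl35 between -0.49 and -0.44 in the 5 gates, while the 82 counted ribosomal protein genes had a median of 0.01. Gm17056, 2.86-fold higher at dpp40, is annotated as antisense to another gene.

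Globin genes accounted for 4 of the 19 genes past 2-fold lower. Hbb-bs and Hbb-bt, the adult beta-globins, lie side by side on chromosome 7. Hbb-bs had 24327 UMIs in NP (612 CPM), 20213 at dpc16, 11272 at dpp6 and 13 at dpp40 (0.208 CPM), and Hbb-bt 7360, 4353, 3246 and 0 UMIs, at least 3861-fold lower at dpp40 with a floor of 3 UMIs. Hba-a2 had 256 CPM in NP and 7.62 at dpp40, and Hba-a1 434 and 68.6 CPM. Cells in which globins made up over 10% of UMIs numbered 9 in NP, 11 at dpc16, 4 at dpp6 and 0 at dpp40. The 10 richest cells held 91.5% of all globin UMIs in NP, 81.0% at dpc16, 87.5% at dpp6 and 4.95% at dpp40. Without those 9 cells of NP, Hba-a1 had 70.7 CPM in NP and 68.6 at dpp40, and Hba-a2 15.9 and 7.62 CPM, whereas Hbb-bs still had 41.6 and 0.208 CPM. At dpp40, Hba-a1 was thus present with almost no beta-globin: 4296 UMIs in 1112 cells, of which the 10 richest held 5.03%, and its ratio in the high keratin range was 0.13.

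At the Skint locus on chromosome 4 the NP library differed from all 3 others. The Skint genes encode immunoglobulin-like membrane proteins of keratinocytes, and Skint1 is known for the selection of epidermal T cells; several are close copies, so reads may be split or lost. Skint4, Skint3 and Skint9, which lie side by side (mm10, 112072016 to 112433985), had 464, 964 and 1274 UMIs in NP, spread over 419, 724 and 764 cells. Skint3 and Skint9 had 0 UMIs at dpc16, dpp6 and dpp40, at least 506-fold and 668-fold lower at dpp40, and Skint4 had 1, 1 and 3 UMIs. The neighbours on both sides were detected at similar levels in both libraries: Skint1 had 33.8 CPM in NP and 28.6 at dpp40, Skint7 19.7 and 17.3, and Skint2 13.6 and 17.8. Further along, Skint10 had 50.9 and 76.3 CPM, Skint5 12.4 and 7.25, Skint6 9.40 and 2.46, and Skint11 14.1 and 2.91. Skint11 had 1.52 CPM at dpc16 and 1.84 at dpp6, so NP was again the high library. The mice are labelled with 1 strain and 1 genotype, and whether those of the NP library carried the same sequence at this locus was not tested.

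**Figure D5:**
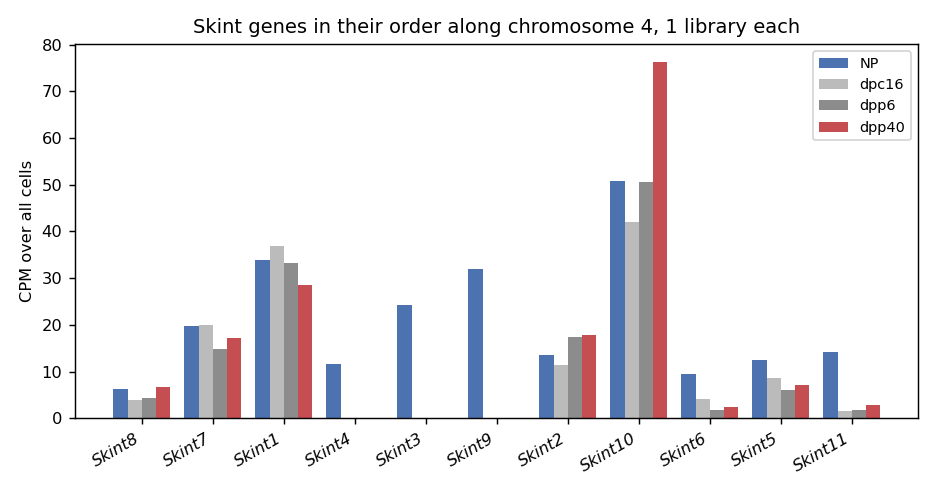
CPM over all cells of the Skint genes, in their order along chromosome 4, with 1 bar for each library. Skint4, Skint3 and Skint9 have bars only in NP (11.7, 24.2 and 32.0 CPM), while Skint1, Skint7 and Skint2 have bars of similar height in NP and dpp40.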

How the data were processed

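Whole epidermis was dissociated with trypsin and captured in droplets, per the labels' protocols. The authors deposited raw UMI counts per gene and barcode, made with Cell Ranger 2.2.0 and the build mm10, per the submitters' processing notes. The rule that called cells is not given in the sources used here. From the deposited counts, barcodes under 200 genes or over 10% mitochondrial UMIs were dropped, which left 8552 cells at dpp40, the number stated by the study, and 6491 in NP, where it states 6485. No doublet caller was run. The 9 bulk libraries were not used here.

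UMIs were summed per library and scaled to CPM. A gene was counted with a mean of at least 10 CPM over NP and dpp40. Shares of cells were taken after thinning each cell once to 2000 UMIs (seed 1), with Clopper-Pearson intervals. Gates used raw UMIs. Ratios of genes at 0 UMIs used a floor of 3 UMIs over the library. Python 3.11.15, numpy 2.4.6, scipy 1.17.1 and pandas 2.3.3 were used. The 2-fold count was tested on simulated libraries and the thinning on cells of the NP library. Positions come from GENCODE for mm10 and promoter windows from RefSeq.

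Named were the 15 highest and 15 lowest ratios among genes with a mean of at least 20 CPM, the 3 members with the largest ratio either way of each of 53 lists, Tbx3 and EGFP; some of these are not reported here. Other genes named, among them the Skint and Lce1 families, Cyp2g1 and Cyp2f2, were chosen after their values were seen. The members, lists and rules were chosen with earlier results of these data known. Alternatives varied the cell and level filters, scaling, weighting of cells, depth, gates and fold, and 2 were added after seeing the data (gates of dpp40 weighted as in NP; each gene without its 10 richest cells).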

Additional observations from a re-analysis of the deposited data

How the results depend on the processing

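The counts of 21 genes at least 2-fold higher and 19 lower lay between 18 and 30 and between 15 and 27 under the alternatives, other than the following. With a mean of at least 50 CPM 7 were higher and 5 lower (of 2148), without a level filter 1588 and 1682 (of 18340, most of them with few UMIs), and at 1.5-fold 85 and 61. No scaling moved the median log2 ratio of all genes by more than 0.03. Of 1573 recomputed ratios of 143 named genes, 202 moved by more than their counting interval and 9 changed sign. Sign changes were counted only where the main log2 ratio was at least 0.2 either way. Isg15, -0.29 over all cells, had 0.29 with cells weighted equally, 0.42 without the 1% of cells with the most UMIs, 0.18 after thinning and 0.47 without its 10 richest cells. Cxcl10, -0.27, had 0.15, 0.44 and 0.57 with equal weights, without the 1% and without its 10 richest cells. After thinning Trbc1 had 0.01 and EGFP 0.37, against -0.23 and -0.42. The median of 5 chemokines, -0.21, was 0.05 without the 1% and 0.08 without the 10 richest cells of each gene. Of 473 recomputed list medians, 42 moved by more than the median counting interval of their members. Of 158 recomputed ratios within gates 27 moved past their counting interval. So did 37 of 80 recomputed differences in the share of cells with a marker. The cause of these changes was not tested. No paired analysis was possible because each state has 1 single-cell library. With 1 library per state, no library could be left out.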

Other observations

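Cyp2g1, a cytochrome P450 gene, had the highest ratio among all genes with a mean of at least 10 CPM, with 2.59 CPM in NP, 0.740 at dpc16, 6.96 at dpp6 and 25.6 at dpp40. Its UMIs lay in few cells: 38 cells (0.444%) with at least 5 UMIs held 90.1% of them at dpp40, and 6 cells (0.0924%) held 63.1% in NP. All 9 sebaceous markers were higher in these cells than in the others of the same library. Scd1, a fatty acid desaturase abundant in sebocytes, had 14273 CPM in the 38 cells and 116 CPM in the others at dpp40. Cyp2f2, a nearby cytochrome P450 gene on chromosome 7, had 0.729 CPM in NP and 6.22 at dpp40. The 6 counted of the 9 sebaceous markers had a median log2 ratio of -0.03, with Scd1 at 0.42 and Mgst1 at -0.34. The members below the level filter, at up to 2.11 CPM in NP and dpp40, were Awat2 at 0.61, Awat1 at 0.38 and Pparg at -0.41.

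Among all genes with at least 50 UMIs in 1 of both libraries, 15 differed by more than 8-fold, 11 higher in NP and 4 at dpp40. Of these 15, 6 had a mean of at least 10 CPM. The number of genes with at least 50 UMIs was not recorded, so no share is given. Besides the globin and Skint genes, those higher in NP included Alas2, the first enzyme of haem synthesis in red blood cell precursors, the interferon-induced Ubd and Cxcl9, and Ccer2. Cxcl9, a chemokine that attracts T cells, had 16.1 CPM in NP, 1.04 at dpc16, 4.31 at dpp6 and 1.63 at dpp40. Its NP level came from 642 UMIs in 52 cells, and its dpp40 level from 102 UMIs in 59 cells. Ubd was seen in 38 cells of NP and 32 at dpp40, Ccer2 in 25 and 63, and Alas2 in 20 and 6. For Cxcl9, Ubd and Ccer2 the libraries thus differed mainly in UMIs per positive cell, in few cells. Besides Cyp2g1 and Cyp2f2, those higher at dpp40 were Gadl1 and Ccl1. Gadl1 had 0.201 CPM in NP, 3.63 at dpc16, 2.58 at dpp6 and 2.86 at dpp40. Ccl1, a chemokine, had 0.201, 8.39, 5.77 and 2.35 CPM, from 17 cells at dpp40, so NP was the low library for both.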
